A study of Rattus norvegicus with 6 samples.

Results

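miR-31a is the rat form of the microRNA miR-31, and both of its strands were measured here: miR-31a-5p, from the 5′ side of the hairpin, and miR-31a-3p, from the 3′ side. On the array they are named rno-miR-31a-5p and rno-miR-31a-3p. The rule that picks them uses their names and no measured value, though earlier results of these data were known when it was set. They are 2 of the 719 rat miRNAs on the array, with 4 of its 1730 probes. Both passed the filter on dim signals, as did 167 miRNAs in all. The samples were rat primary skeletal muscle cells (RSkMC), which the labels describe as isolated from limb muscle of newborn rats and obtained cryopreserved from ECACC at the second passage. The cells were grown with 10% foetal bovine serum and moved to 2% horse serum to differentiate. All 6 samples were collected on day 11: 3 were untreated controls and 3 had received 1 ng/ml of IL-8 (interleukin-8, a neutrophil-attracting chemokine). Each sample was hybridised to a 1-colour Agilent miRNA array, and the question the design poses is which miRNAs differ with IL-8. Whether replicates were grown as separate cultures is not given in the labels. The p-values therefore measure the spread among these 6 samples alone, and that spread may be technical.

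A miRNA hairpin is cut into a short duplex, and 1 strand of it usually stays in the silencing complex, where bases 2 to 8, the seed, pair with target mRNAs. miR-31-5p is best known in muscle as a repressor of Myf5, a transcription factor of myogenic commitment: in quiescent satellite cells, the stem cells of muscle, it has been described together with stored Myf5 mRNA. It has also been described as a repressor of dystrophin in regenerating and dystrophic muscle, and as responsive to inflammatory signals in epithelium and endothelium. Neither mRNA was measured in these samples.

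The mature strands are printed here with the seed in capitals, because the seed sets which mRNAs a strand can pair with and because the strands carry different ones. The sequences are RefSeq's, on rat assembly GRCr8.
miR-31a-5p: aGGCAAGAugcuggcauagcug
miR-31a-3p: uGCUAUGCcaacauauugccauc
No other mature miRNA among the 693 names in the RefSeq table carried either seed. Array miRNAs without a sequence in that table were not checked for it. The 5p strand is 22 bases long with a GC content of 54.5%, and the 3p strand is 23 bases long with 43.5%. The hairpin that holds both, from the gene Mir31, is 106 bases long, and its strands are in capitals here to show the 14 bases between them.
Mir31 hairpin: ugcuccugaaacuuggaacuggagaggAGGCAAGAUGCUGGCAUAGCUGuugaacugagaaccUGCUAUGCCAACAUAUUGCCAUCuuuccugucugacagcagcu

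The locus also gives a miRNA from the opposite DNA strand. miR-31b, from the gene Mir3554, is printed with its own seed in capitals because all 19 of its bases are the reverse complement of bases 1 to 19 of miR-31a-5p.
miR-31b: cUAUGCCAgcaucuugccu
Its first 8 bases recur in miR-31a-3p from base 3 on. In the RefSeq table both genes lie within the span of the lncRNA gene LOC130062807. The nearest protein-coding genes were Ifne on one side and C5h9orf85, Mtap and Cdkn2a on the other. Exons and introns of that lncRNA were not analysed here.

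Each strand had 2 probes with 10 spots apiece on every array. The 4 probes are given because they decide which bases are read: the 5p probes pair with bases 6 to 22 and 7 to 22 of their strand, and the 3p probes with bases 6 to 23 and 5 to 23. The 5p probes thus touched 3 and 2 of the 7 seed bases.
5p probe of 17 bases: cagctatgccagcatct
5p probe of 16 bases: cagctatgccagcatc
3p probe of 18 bases: gatggcaatatgttggca
3p probe of 19 bases: gatggcaatatgttggcat
In the array files the longer 5p probe is placed at chr5:108497682-108497697 and the longer 3p probe at chr5:108497717-108497734 of rat build rn4. These positions do not match the annotation: they put miR-31b over the 3p probes by 11 bases and over the 5p probes by 0, whereas in RefSeq miR-31b overlaps the 5p strand by 19 bases and the 3p strand by 0. They are given as deposited, but printed from low to high. As deposited, those of the miR-31a probes run from high to low.

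Both strands were measured on every array. All 120 spots of each strand were well above background and 0 were saturated, with 8 spots per strand left out as outliers. The 5p probes were 26.0 to 75.1 times as bright as the dimmest signal well above background on the same array, and the 3p probes 4.19 to 13.3 times. The coefficient of variation among spots of a probe had a median of 5.97% for the 5p probes and 4.49% for the 3p probes. miR-31b, the antisense miRNA, had 0 of 120 spots well above background, and its mean signal was below 0 on all 6 arrays after background subtraction. No fold is given for it.

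Before any scaling between arrays, miR-31a-5p had mean probe signals of 619, 719 and 698 on the control arrays and 714, 751 and 727 on the IL-8 arrays. miR-31a-3p had 91.4, 116 and 131 on the control arrays and 130, 140 and 132 on the IL-8 arrays. Control replicate 1 was the dimmest array for both strands. The arrays as a whole differed in the same sense: the 75th percentile of detected probes was 440, 475 and 497 in the controls and 569, 549 and 540 with IL-8. Each array was therefore divided by that percentile, so the levels below are log2 values relative to it, and a shift shared by every miRNA of an array is removed. The controls shared 1 slide and the IL-8 samples another. Slide and treatment cannot be told apart for any value here. In these bulk RNA samples, fewer cells of a type and less RNA per cell cannot be told apart either.

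The scaled log2 level of miR-31a-5p, the strand described for Myf5, was 0.43, 0.54 and 0.43 in the controls and 0.27, 0.40 and 0.37 with IL-8. The highest IL-8 array thus lay below the lowest control array, and the groups did not overlap. Such a gap between the groups was present for 29.9% of the 167 tested miRNAs, and with IL-8 lower for 13.8%. The means were 0.47 ± 0.063 (SD, n = 3) and 0.35 ± 0.065 (SD, n = 3). The difference was -0.12 (SE 0.059), a fold of 0.920 with a 95% confidence interval of 0.836 to 1.01. It did not pass the test, with an adjusted p of 0.282 by limma with Benjamini-Hochberg adjustment (unadjusted p = 0.0810). The same test called 5.99% of the 167 miRNAs in either direction, 10 in all, with 5 higher (2.99%) and 5 lower (2.99%), and 24.6% had an unadjusted p under 0.05. By the size of its difference miR-31a-5p was in place 63 of 167, above the median size over all tested miRNAs, 0.083. The direction rests on the scaling: without any scaling the difference was 0.11, when the median over all tested miRNAs was 0.24, and with the spike-in RNAs as the scale it was 0.068, when that median was 0.20. Relative to those medians, miR-31a-5p stood at -0.12 and -0.13, against -0.14 in the scaling used here and -0.035 with normexp background correction. Scaled by the 75th percentile of all probes, detected or not, it differed by -0.22. The gap between the groups was also not present under all settings: they overlapped without control replicate 1, with median scaling, with the total gene signal, with the 75th percentile of all probes, with either spike-in scaling and in the unscaled values. They overlapped as well with the adjustment for GC content given below. Without control replicate 2 the difference was -0.077.

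The scaled log2 level of miR-31a-3p was -2.30, -2.06 and -1.95 in the controls and -2.16, -2.01 and -2.08 with IL-8. The IL-8 values lay within the range of the controls. The means were -2.10 ± 0.18 (SD, n = 3) and -2.08 ± 0.079 (SD, n = 3). The difference of 0.022 (SE 0.095) is a fold of 1.02 with a 95% confidence interval of 0.869 to 1.19, and it did not pass limma's test (adjusted p = 0.934 by Benjamini-Hochberg). The interval leaves room for a change of either sign. Without control replicate 1 the difference was -0.061. Its sign turned as well with median scaling (-0.0098), with the 75th percentile over all probes as the scale (-0.075), with normexp background correction (-0.035) and without IL-8 replicate 2 (-0.015).

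**Figure D1:**
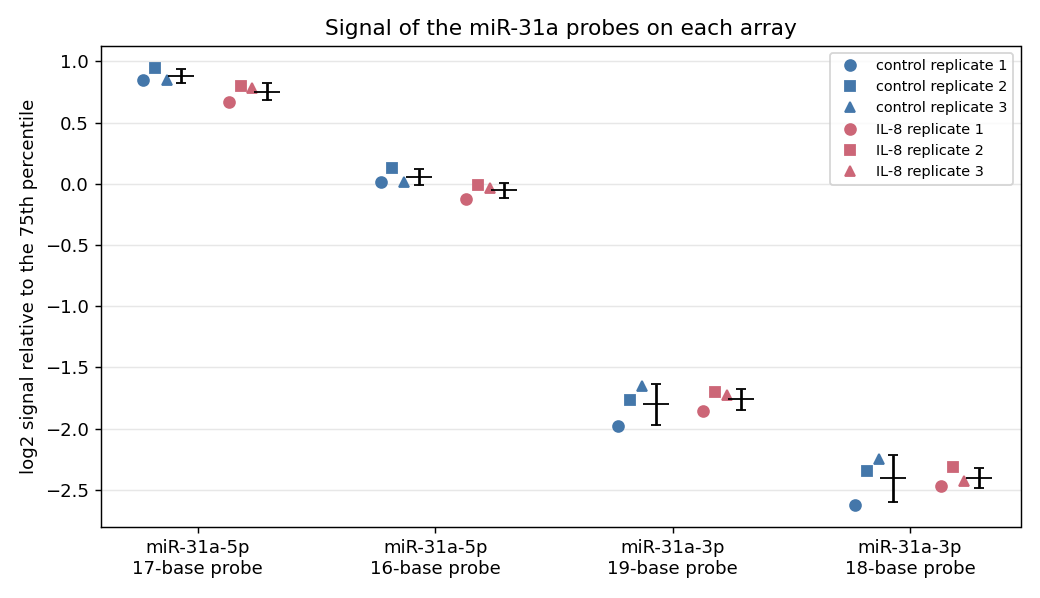
Scaled log2 signal of the 4 miR-31a probes on each of the 6 arrays, with a point for each array and probe. The 5p probes lie above the 3p probes on every array, and both probes of a strand move in parallel from array to array.

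The probes of a strand gave the same picture. The 17-base probe of miR-31a-5p had a log2 level of 0.88 ± 0.058 in the controls and 0.75 ± 0.069 with IL-8 (SD, n = 3), a difference of -0.13. The 16-base probe of the same strand had 0.054 ± 0.068 and -0.054 ± 0.060, a difference of -0.11. The longer 5p probe was 1.77 ± 0.014 times as bright as the shorter in the controls and 1.75 ± 0.011 times with IL-8 (SD, n = 3), so 1 base of probe length went with a larger gap in brightness than the treatment did. For miR-31a-3p the 18-base and 19-base probes differed between the groups by 0.0038 and 0.041 on the log2 scale. Probes of 1 strand share their target and their arrays, so they were not tested as replicates.

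Ordered by brightness among the 167 tested miRNAs, miR-31a-5p was in place 25, 26 and 26 on the control arrays and 27, 27 and 28 on the IL-8 arrays. miR-31a-3p was in place 67, 60 and 63 on the control arrays and 63, 62 and 62 on the IL-8 arrays. Brightness also depends on how well a probe binds, so these places order signals, not amounts of RNA. By mean log2 level miR-31a-5p came 27th, with miR-16-5p at 0.63 and miR-181a-5p at 0.44 next above it and miR-99a-5p at 0.34 and miR-26b-5p at 0.17 next below. The values of miR-181a-5p and miR-99a-5p over the 6 arrays overlapped those of miR-31a-5p. miR-181a-5p, which has been described in myoblast differentiation, was in a different order in the 2 groups: it rose 1.19-fold with IL-8 (adjusted p = 0.0315 by limma). That call was lost when control replicate 1 or 2 or any 1 IL-8 array was left out, and without the filter. It was also lost with the total gene signal, with the replicate number as a block and when scaled by the 75th percentile over all probes. miR-181a-5p lay below miR-31a-5p on the control arrays and above it on the IL-8 arrays.

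**Figure D2:**
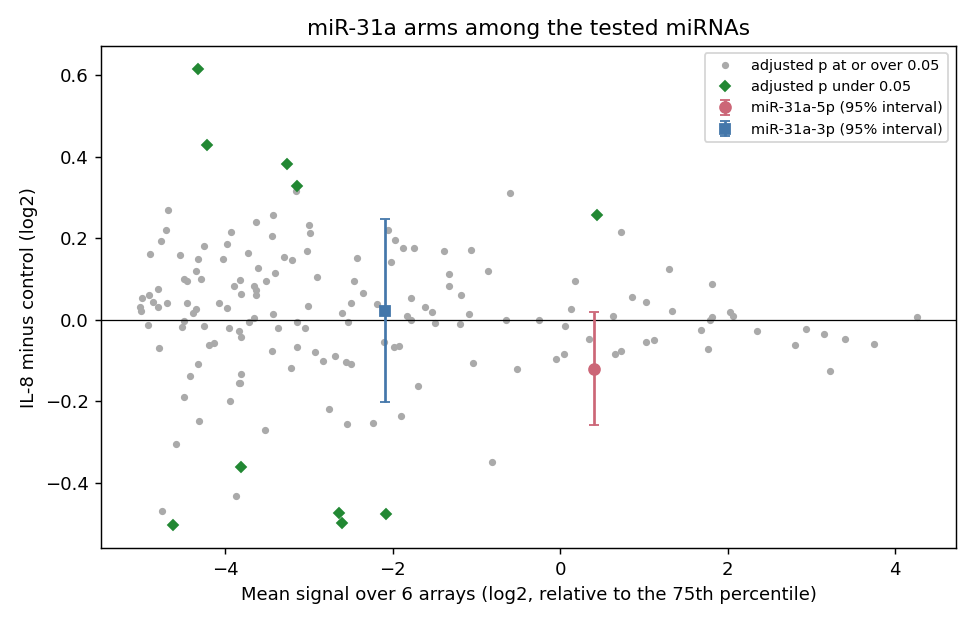
Difference between IL-8 and control on the log2 scale against mean log2 level for the 167 tested miRNAs, with both miR-31a strands marked. miR-31a-5p lies at -0.12 and miR-31a-3p at 0.022, within the spread of the other miRNAs.

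Because both strands come from 1 hairpin and are read on the same array, their difference does not depend on how an array is scaled by a single factor. The signal of miR-31a-5p was 6.77, 6.18 and 5.32 times that of miR-31a-3p on the control arrays and 5.50, 5.37 and 5.52 times on the IL-8 arrays. The IL-8 ratios were close together and within the range of the controls, where control replicate 1 was highest and control replicate 3 lowest. The mean ratio was 6.09 ± 0.73 (SD, n = 3) in the controls and 5.46 ± 0.080 (SD, n = 3) with IL-8. On the log2 scale the difference between strands was 2.57 in the controls and 2.43 with IL-8, a change of -0.14. An exact two-sided permutation test over the arrays gave p = 0.4, where the smallest p that 3 against 3 allows is 0.1. Without control replicate 1 the change was -0.061 and without control replicate 3 it was -0.24, so each of these controls moved its size by over 1.5 times. With normexp background correction it was -0.070. After quantile normalization, which is not a single factor per array, it was -0.18, with p = 0.1 by the permutation test. The 4 pairings of 1 probe of each strand gave changes from -0.17 to -0.11. The ratio sets 1 probe's brightness against another's and is not the ratio of the strands' amounts.

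**Figure D3:**
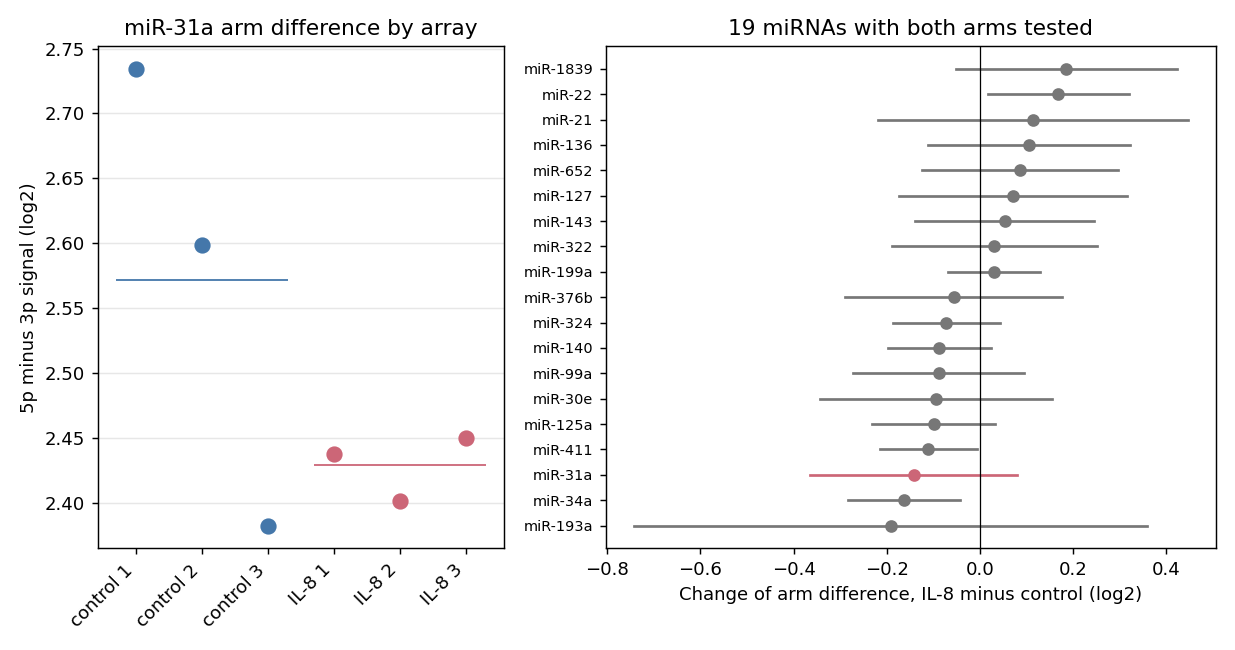
Log2 difference between miR-31a-5p and miR-31a-3p on each array, with group means. The controls run from 2.38 to 2.73 and the IL-8 arrays from 2.40 to 2.45, so the groups overlap.

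Strands whose names also number the hairpin, such as miR-181a-1-3p, were left unpaired. The array held 19 pairs of tested strands whose names differ only in the strand ending. Over these, limma called 0 changes of the difference between strands after adjustment and 3 at an unadjusted p under 0.05, and the exact permutation tests could not go below 0.1. A gap between the groups was present in 26.3% of the 19 pairs, and the miR-31a pair was not among them. By size its change was the fifth of 19, against a median size of 0.095. In that limma fit its change of -0.14 had an SE of 0.091 and an adjusted p of 0.415.

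Likeness of profile was measured as the root mean square difference of log2 levels over the 6 arrays after centring each miRNA on its own mean. A small value means that 2 miRNAs deviated from their means by similar amounts on each array. Because spread is not divided out, 2 miRNAs that hardly varied also get a small value. The 5 miRNAs most like miR-31a-5p among the 166 others were miR-24-3p (0.034), miR-221-3p (0.036), miR-22-3p (0.037), miR-99b-5p (0.042) and miR-222-3p (0.044), against a median of 0.12 over all 166. None of the 5 changed at the threshold. They were picked on the same 6 arrays, so differences near that of miR-31a-5p follow from the choice. Their differences were -0.062 for miR-24-3p, -0.096 for miR-221-3p, -0.13 for miR-22-3p, -0.10 for miR-99b-5p and -0.16 for miR-222-3p, and like that of miR-31a-5p all 5 were above 0 without scaling or with spike-in scaling. That of miR-24-3p was also above 0 after quantile normalization, at 0.0029. miR-221-3p and miR-222-3p, products of 1 cluster known for repressing the cell cycle inhibitor p27, and miR-22-3p, described in muscle hypertrophy, are from other loci than miR-31a. The other strand of the hairpin was not close: miR-31a-3p came 86th of the 166, at 0.13. The 5 most like miR-31a-3p, looked up after its values were seen, were miR-301a-3p, miR-21-5p, miR-106b-5p, miR-27a-3p and miR-199a-5p, at 0.035 to 0.052, and miR-31a-5p came 91st.

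Control replicate 1 differed from the other controls along base composition, and the strands differ in it. For the 154 of 167 tested miRNAs with a RefSeq sequence, the log2 level on control replicate 1 minus the mean of the other controls had a Pearson correlation of 0.59 and a Spearman correlation of 0.59 with GC content. These are descriptions across miRNAs that share the same 3 arrays, and miRNAs are not independent replicates. On that array the 5p strand deviated by -0.054 and the 3p strand, poorer in G and C, by -0.30, when the median miRNA deviated by -0.078. Control replicate 3, set against its own 2 fellow controls, deviated by -0.055 for the 5p strand and by 0.23 for the 3p strand. The difference between IL-8 and control had a Pearson correlation of -0.33 and a Spearman correlation of -0.29 with GC content. With a straight line on GC content subtracted on each array, an alternative chosen after seeing the data, miR-31a-5p differed by -0.074 (adjusted p = 0.493 by limma), miR-31a-3p by -0.0027 (adjusted p = 0.991) and the difference between strands by -0.071. That line, for levels centred on each miRNA's mean, rose with GC content on control replicates 1 and 2. It fell on control replicate 3 and on all IL-8 arrays. The steepest line was that of control replicate 1, and the next that of IL-8 replicate 3. The adjustment thus made the differences of miR-31a-5p and between strands smaller by over 1.5 times and turned the sign of miR-31a-3p. With it the groups of miR-31a-5p overlapped. What part GC content has in these values was not tested further.

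**Figure D4:**
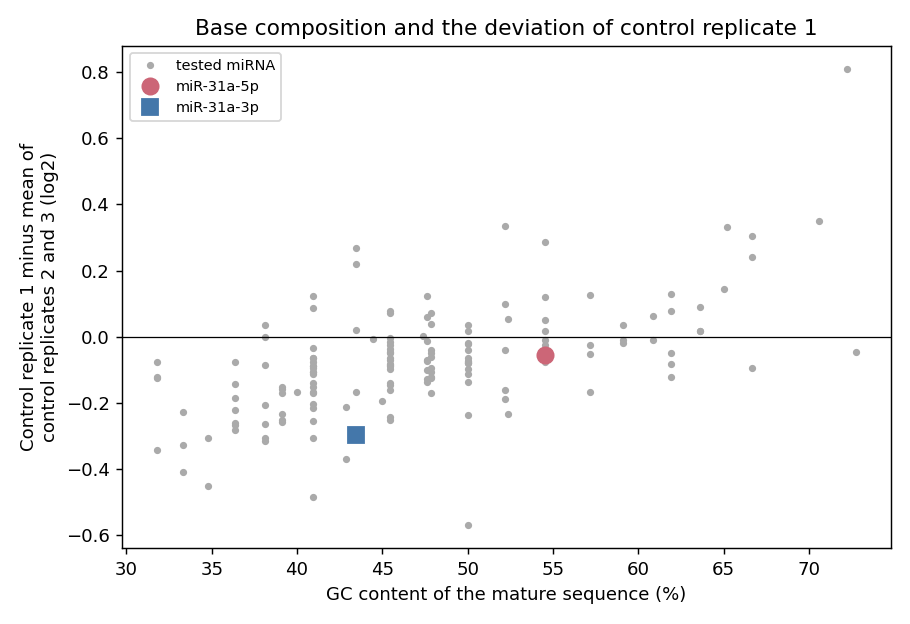
Deviation of control replicate 1 from the mean of the other controls, in log2 units, against GC percent of the mature sequence for 154 tested miRNAs, with both miR-31a strands marked. GC-poor miRNAs lie lower, and miR-31a-3p at -0.30 lies below miR-31a-5p at -0.054.

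miR-31a-5p was read beside miRNAs described as acting on Pax3, Pax7, Myf5 or satellite cell quiescence. Of the 23 listed, 21 were on the array and 10 were tested: miR-31a-5p, miR-27a-3p, miR-27b-3p, miR-29a-3p, miR-106b-5p, miR-125b-5p, miR-127-3p, miR-128-3p, miR-322-5p and miR-431. Of these 0 rose and 0 fell by limma's adjusted p, where 5.99% of all tested miRNAs were called. By unadjusted p 1 was under 0.05, against 24.6% of all tested miRNAs. The median difference was -0.029, against 0.016 over all tested miRNAs. The smallest p-values after that of miR-128-3p, at -0.15 (adjusted p = 0.158), were those of miR-31a-5p itself, of miR-27b-3p at -0.082 and of miR-27a-3p at 0.089. miR-27a-3p and miR-27b-3p, described as repressors of Pax3, had adjusted p-values of 0.648 and 0.488. miR-27a-3p was below 0, at -0.0086, with the 75th percentile over all probes as the scale, and miR-128-3p and miR-27b-3p were above 0 without scaling or with spike-in scaling. With normexp background correction miR-128-3p passed the threshold, at -0.17, and the list had 1 that fell, where 23 of all 167 fell. The median of the list was 0.20 without scaling, against 0.24 over all tested miRNAs.

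Of 18 miRNAs described as altered in dystrophic or regenerating muscle, 16 were on the array and 8 were tested: miR-31a-5p, miR-21-5p, miR-29c-3p, miR-34c-5p, miR-214-3p, miR-221-3p, miR-222-3p and miR-494-3p. None passed limma's adjusted threshold, against 5.99% of all tested miRNAs, 2 had an unadjusted p under 0.05, against 24.6%, and the median difference was -0.082. miR-34c-5p, a p53-responsive miRNA, differed by -0.26 with an adjusted p of 0.0512, and miR-222-3p by -0.16 with 0.188. miR-34c-5p did pass under some other settings, among them median scaling, quantile normalization and array weights, with the same sign. With normexp both miR-34c-5p and miR-222-3p passed, where 23 of all 167 tested miRNAs fell. The median of the list was 0.15 without scaling, against 0.24 over all tested miRNAs.

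Of 18 miRNAs on a list set as induced by inflammatory signals (TNF, IL-1 or NF-kappaB), 17 were on the array. Whether each of them is induced by such signals was not checked here. The 10 tested were both miR-31a strands, let-7i-5p, miR-21-5p, miR-125b-5p, miR-132-3p, miR-181b-5p, miR-212-3p, miR-221-3p and miR-222-3p. In this list 0 rose and 1 fell, where 5.99% of all tested miRNAs were called, and the median difference was -0.062. These counts differed between scalings. Without scaling and with spike-in scaling 2 rose (miR-181b-5p and miR-212-3p) and 0 fell, with medians of 0.17 and 0.13. Over all 167 tested miRNAs, 50 rose and 1 fell without scaling, with a median of 0.24. With spike-in scaling 43 of the 167 rose and 3 fell, with a median of 0.20. With the labelling spike-ins 1 rose and 0 fell, where 34 of all 167 passed. With array weights 1 rose and 1 fell, where 28 of all 167 passed. The member that rose was miR-181b-5p both times. With normexp 0 rose and 2 fell, miR-132-3p and miR-222-3p, where 1 of all 167 rose and 23 fell. The member that fell in the processing used here was miR-132-3p, described as induced by inflammatory signals and by CREB. It differed by -0.36 on the log2 scale (adjusted p = 0.0218 by limma). That call was lost without control replicate 2, without any 1 of the IL-8 arrays, without the filter and without scaling. It was also lost with either spike-in scaling, with the 75th percentile over all probes and with the replicate number as a block. The sign stayed the same each time. miR-181b-5p, described as a damper of NF-kappaB signalling, differed by 0.18 with an adjusted p of 0.109.

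The cells were checked against miRNA markers. Of 7 striated muscle markers, miR-1-3p, miR-133a-3p, miR-133b-3p, miR-206-3p, miR-208a-3p, miR-208b-3p and miR-499-5p, 0 were well above background on any array. Their summed signal before scaling, with negative signals set to 0, was 5.54 to 11.8 in the controls and 7.48 to 20.6 with IL-8. The IL-8 arrays were brighter as a whole before scaling, so such sums do not compare the groups. All 6 fibroblast and smooth muscle markers, miR-21-5p, miR-214-3p, both strands of miR-199a, miR-145-5p and miR-143-3p, were tested. Their summed signal, likewise unscaled, was 43303 to 57862 in the controls and 57213 to 58501 with IL-8. None of these 6 changed at the adjusted threshold, and their median difference was -0.024. The defining markers of blood, endothelium and epithelium were not well above background (0 of 6, 0 of 2 and 0 of 7), and of 3 neural markers miR-128-3p was tested. The part of cell makeup in the miR-31a values was not tested. No marker of satellite cells as such is among these miRNAs, so the level of miR-31a-5p is that of the whole culture. In the satellite cell list above, 10 of the 21 members on the array were well above background on all 6 arrays. The rest of those 21 were well above background on no array, among them miR-489-3p, miR-708-5p, miR-195-5p and miR-497-5p.

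**Figure D5:**
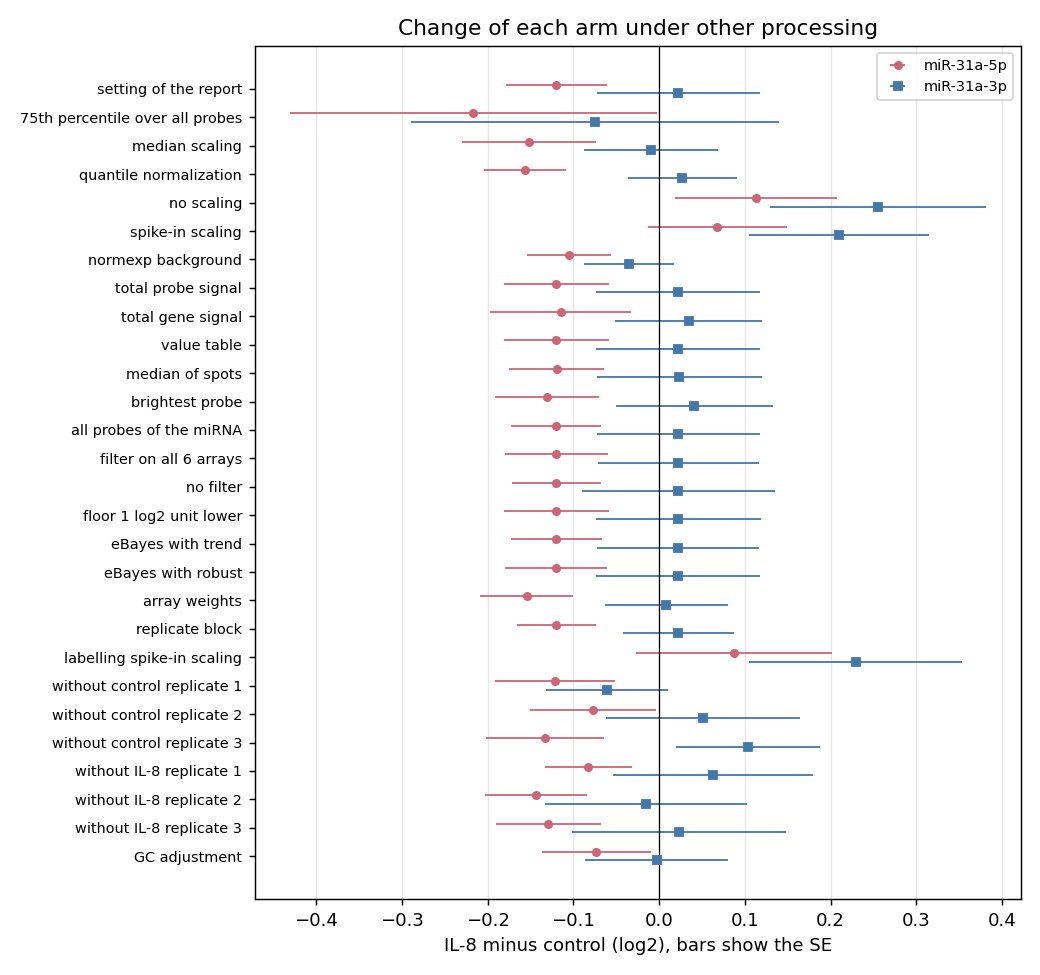
Difference between IL-8 and control on the log2 scale for each miR-31a strand, under the processing used and under each alternative, with bars for the SE. miR-31a-5p is below 0 except at 0.11, 0.068 and 0.087, without scaling and with the 2 spike-in scalings, and miR-31a-3p lies on both sides of 0.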

How the data were processed

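The deposited values are fluorescence intensities of array spots, extracted with Agilent Feature Extraction 10.10.1.1 per the submitters' processing notes. Per the file headers, spot signals were background-subtracted by the authors' software and not normalized between arrays. The deposited table of values repeats these intensities: 90570 of 90570 values equalled the total probe signal within a tolerance of 1e-04, on a linear scale and not centred, with column medians of -0.529, -1.35 and -1.17 (control) and 0.307, -0.802 and -1.18 (IL-8). Per the labels, 100 ng of RNA with an integrity number of 9.5 to 10.0 was used per array. The growth protocol mentions IL-8 for all samples; titles were followed for the groups.

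Spots of a probe were averaged without outliers, divided by the array's 75th percentile over 264 probes well above background on all 6 arrays, floored at a log2 of -5.03, and log2 was taken. A probe was well above background when over 50% of its spots were. A miRNA's value was the mean over its probes well above background in every sample of either group. The groups were compared with limma 3.58.1 in R 4.3.3 (with data.table, version 1.17.8, for reading), with Benjamini-Hochberg adjustment over 167 miRNAs and a threshold of 0.05. The difference between strands was tested by exact two-sided permutation. With 3 arrays a group, their number limits precision. The fit was tested on simulated data. Members, lists and tests were chosen with earlier results of these data known. Named were the members, miRNAs sharing their seed or name, the 5 most alike, the 2 next above and below in level, and tested list members, with values for the 4 smallest p of each list. Alternatives covered scaling, background correction, spot and probe summaries, filters, the variance model, array weights, a replicate block and leaving out each array.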

Additional observations from a re-analysis of the deposited data

How the results depend on the processing

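The difference of miR-31a-5p kept its sign in 24 of 27 alternatives and that of miR-31a-3p in 21 of 27, with 0 of either past the threshold. The difference between strands kept its sign in all 30. These tallies include alternatives that could not move the values. Scaling by a single factor per array cancels in the difference between strands. Other filters or variance models leave the differences of these strands as they are. miR-31a-5p ranged from -0.22 to 0.11 (adjusted p 0.0970 to 0.998), miR-31a-3p from -0.075 to 0.26 (adjusted p 0.105 to 0.998) and the strand difference from -0.24 to -0.061 (p 0.1 to 0.7). miR-31a-5p reversed in the unscaled values (0.11), with spike-in scaling (0.068) and with the labelling spike-ins alone (0.087). miR-31a-3p reversed with the 75th percentile over all probes (-0.075), median scaling (-0.0098), normexp (-0.035) and the GC adjustment (-0.0027). Leaving out 1 array gave -0.14 to -0.077 for miR-31a-5p, -0.061 to 0.10 for miR-31a-3p and -0.24 to -0.061 for the strand difference. The count of miRNAs past the threshold, 10, became 0 with the 75th percentile over all probes (9 at an unadjusted p under 0.05), 1 without a filter, 15 with median scaling, 17 after quantile normalization, 51 without scaling (50 higher), 46 with spike-in scaling (43 higher), 34 with labelling spike-ins (34 higher), 24 with normexp (1 higher) and 28 with array weights, and leaving out 1 array gave 1 to 29 (leaving out control replicate 3 gave 29 and control replicate 2 gave 5, IL-8 replicate 1 gave 3, and IL-8 replicate 2 or 3 gave 1). The cause was not tested. The deviations of same-numbered arrays had correlations of 0.29, 0.33 and 0.086; since the third was not over 0.1 and the labels give no shared source, the numbers were not taken to pair the arrays. With the replicate block miR-31a-5p had an adjusted p of 0.182 and miR-31a-3p one of 0.854 by limma, the strand difference had p = 0.5 by an exact sign-flip permutation test, and 8 miRNAs passed, with neither miR-132-3p nor miR-181a-5p among them.

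Among the other named miRNAs, 32 of 390 values reversed. With the 75th percentile over all probes, miR-16-5p was -0.087, miR-26b-5p -0.0018 and miR-27a-3p -0.0086. miR-16-5p was -0.022 with median scaling and -0.0056 with the median of spots, and leaving out 1 array gave -0.0027 to 0.047. miR-24-3p was 0.0029 after quantile normalization and leaving out 1 array gave -0.098 to 0.032 for miR-99a-5p. For no scaling, all spike-ins and labelling spike-ins, in that order, miR-99a-5p was 0.19, 0.14 and 0.16, miR-24-3p 0.17, 0.13 and 0.15, miR-221-3p 0.14, 0.091 and 0.11, miR-22-3p 0.11, 0.062 and 0.081, miR-99b-5p 0.13, 0.083 and 0.10, miR-222-3p 0.071, 0.026 and 0.046, miR-128-3p 0.079, 0.034 and 0.053, and miR-27b-3p 0.15, 0.11 and 0.12. The labelling spike-ins, the GC adjustment, the probe pairings and the limma fit over strand pairs were chosen after seeing the data.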
